A study of Rattus norvegicus with 256 samples.

Results

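Gene expression in the rat heart was set against that in the soleus, a slow postural muscle of the lower leg, over every probeset of the RAE230_2 rat genechip. Of 256 arrays from 31 organs, the 15 whose tissue label names the heart or the soleus were taken. They comprise 7 heart arrays (4 male and 3 female) and 8 soleus arrays (3 male and 5 female). The 6 arrays of the gastrocnemius (2 male and 4 female), the only other skeletal muscle in the series, served to show which differences set the heart apart from both muscles. All animals were Han Wistar-derived rats (AlpkHsdBrlHan:WIST) without any treatment or genetic change, and every array was made from the RNA of a single organ of a single rat. The methods name 5 male and 5 female rats, but their age is not given in the sources used here. Pieces of frozen organ were used, taken from the same region in each animal and meant to represent the whole organ, and the sources used here do not say which chambers of the heart they held.

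Both organs are striated muscles that burn fatty acids and lactate in dense mitochondria and store oxygen on myoglobin. They differ in how contraction starts: in the heart, pacemaker cells set the rhythm, gap junctions pass it on, and calcium entering through L-type channels opens the ryanodine receptor, whereas each soleus fibre waits for acetylcholine from a motor neuron and couples its membrane to calcium release by direct contact between proteins. Many parts of the sarcomere, the repeating unit of thick myosin and thin actin filaments, are encoded by separate genes for heart, slow and fast skeletal fibres.

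Values are on a log2 scale, so that a difference of 1 is a 2-fold change, and the authors' threshold for measurable expression is a mean above 100.4 on the linear scale, about 6.7 on the log2 scale. Values of about 2 to 3 lie at the bottom of this scale, where weak and absent expression cannot be told apart, and differences measured against them depend on that floor. A probeset was called where its mean passed that threshold in at least 1 of the organs compared, the organs differed by more than 2-fold and the p-value of limma, adjusted over all 31042 probesets by the Benjamini-Hochberg method, was under 0.05. All differences are heart minus soleus unless stated, and each gene is represented by its probeset with the highest mean. In whole organs, fewer cells of a type and less RNA per cell cannot be told apart.

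Heart arrays correlated with each other at 0.961 to 0.992 over all probesets, soleus arrays at 0.970 to 0.989, and arrays of different organs at 0.908 to 0.934. Array medians ran from 3.94 to 4.08. Heart female 3 and soleus female 4 had the lowest median correlations with their own organ, 0.971 and 0.975. The array labelled heart male 5 goes against its sex label. Its Y-linked Eif2s3y was at 3.04 and its Xist, the RNA that silences an X chromosome in females, at 8.55, while the other 6 male arrays of both organs had 9.28 to 10.51 and 2.51 to 2.75. Its label was kept, and counts are also given without it and without the other arrays just named.

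In all, 10296 probesets were expressed in the heart or the soleus, 9243 of them in the heart and 9157 in the soleus. Of the probesets tested, 1307 were called higher in the heart (4.21%) and 1250 higher in the soleus (4.03%), which represent 902 and 852 named genes. Together these were 24.8% of the expressed probesets, the only ones that could be called. The difference was over 16-fold for 174 probesets higher in the heart and 185 higher in the soleus. The values of the 2 organs did not overlap for 4049 probesets (13.0%), and 2140 of the 2557 called probesets were among these. Over all probesets the median difference was 0.0021, and over the expressed ones -0.03. Without heart female 3, heart male 5 and soleus female 4 together, 1285 probesets were called higher in the heart and 1294 higher in the soleus.

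**Figure D1:**
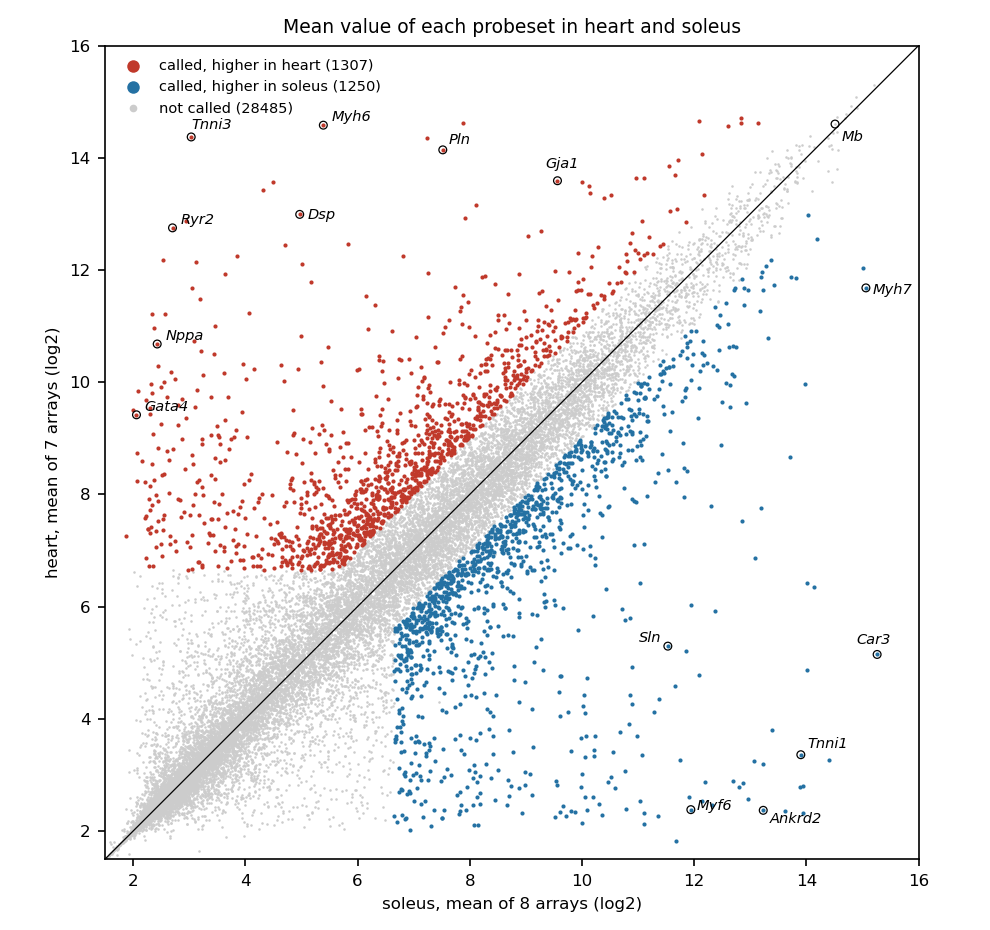
Mean log2 value of each probeset in the 7 heart arrays (y axis) against the 8 soleus arrays (x axis), with the 1307 probesets called higher in the heart in red, the 1250 called higher in the soleus in blue and the others in grey. Labelled genes include Tnni3, Ryr2 and Nppa near the floor of the soleus axis, Tnni1, Ankrd2 and Myf6 near the floor of the heart axis, and myoglobin (Mb) on the diagonal.

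The defining markers followed the labels of both organs. Tnni3 (probeset 1386931_at) encodes cardiac troponin I, the subunit that holds the thin filament in its relaxed state. Its values ran from 14.11 to 14.53 in the heart, with a median of 14.39, and from 2.30 to 4.19 in the soleus, with a median of 2.74. The organs did not overlap, and the difference was 11.33 (standard error 0.29, adjusted p = 2.62e-13 from limma). Tnni1 (1386873_at), the slow skeletal troponin I, had 2.21 to 4.78 in the heart, with a median of 3.39, and 13.80 to 14.12 in the soleus, with a median of 13.88. It was the mirror image of Tnni3, with a difference of -10.54 (standard error 0.28, adjusted p = 4.43e-13). Nppa (1367564_at) encodes atrial natriuretic peptide, a hormone of heart muscle cells that lowers blood volume. It had values of 9.09 to 13.31 in the heart, with a median of 10.32, and of 2.39 to 2.45 in the soleus, with a median of 2.43, and the difference was 8.25 (standard error 0.49, adjusted p = 5.30e-09). Nppb, its relative made mainly in ventricles, had 9.93 to 12.95 in the heart, with a median of 10.96, and 2.50 to 2.65 in the soleus, with a median of 2.55. No soleus array came near a heart array in either peptide, and the difference in Nppb was 8.65 (standard error 0.33, adjusted p = 3.09e-11). In the gastrocnemius Tnni3, Nppa and Nppb averaged 2.34, 2.44 and 2.55, and Tnni1 averaged 12.24.

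The 250 bases before the start of 5 marker genes are shown: Nppa, Nppb and Tnni3 for the heart, and Tnni1 and Ankrd2 for the soleus. Their arrays split the organs without overlap, as did those of many other genes. The sequences come from the RefSeq promoter table of GRCr8, run 5′ to 3′ on the strand of the gene and end at the base before its start. Capitals mark GATAA (a core read by GATA factors), CATTCC (MCAT, read by TEAD factors), CAGCTG (an E-box of the kind read by myogenic factors) and TATAAA, each searched on both strands, so that some capitals read as the reverse complement. No match overlapped another.
Nppa, chr5:163711934-163712183, plus strand: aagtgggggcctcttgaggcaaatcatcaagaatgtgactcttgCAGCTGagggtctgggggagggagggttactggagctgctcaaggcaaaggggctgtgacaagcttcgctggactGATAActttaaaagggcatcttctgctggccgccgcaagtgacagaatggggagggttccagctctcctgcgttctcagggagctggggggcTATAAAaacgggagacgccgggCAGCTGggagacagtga
Nppb, chr5:163699758-163700007, plus strand: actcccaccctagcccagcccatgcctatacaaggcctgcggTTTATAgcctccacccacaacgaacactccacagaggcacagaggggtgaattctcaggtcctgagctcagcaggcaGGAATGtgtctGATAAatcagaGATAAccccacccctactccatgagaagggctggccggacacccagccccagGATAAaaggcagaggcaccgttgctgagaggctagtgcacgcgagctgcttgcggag
Tnni3, chr1:78342321-78342570, plus strand: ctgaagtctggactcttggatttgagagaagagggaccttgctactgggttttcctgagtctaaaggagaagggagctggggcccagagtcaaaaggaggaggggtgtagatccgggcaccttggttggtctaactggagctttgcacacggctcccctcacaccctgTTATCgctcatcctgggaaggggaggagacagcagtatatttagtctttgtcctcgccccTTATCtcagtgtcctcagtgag
Tnni1, chr13:49781279-49781528, plus strand: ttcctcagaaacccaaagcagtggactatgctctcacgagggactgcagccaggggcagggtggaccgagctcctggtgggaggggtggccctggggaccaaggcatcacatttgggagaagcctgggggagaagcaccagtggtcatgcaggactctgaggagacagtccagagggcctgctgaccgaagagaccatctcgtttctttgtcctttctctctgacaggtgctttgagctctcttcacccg
Ankrd2, chr1:250796169-250796418, plus strand: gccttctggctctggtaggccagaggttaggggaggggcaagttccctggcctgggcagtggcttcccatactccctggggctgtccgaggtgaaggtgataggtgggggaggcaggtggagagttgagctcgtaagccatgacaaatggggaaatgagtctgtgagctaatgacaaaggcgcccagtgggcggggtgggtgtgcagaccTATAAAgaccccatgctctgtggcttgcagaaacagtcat
The natriuretic peptide genes are neighbours on the same strand of chromosome 5. Nppb held 3 GATAA matches and Nppa 1, which starts 131 bases before the gene, and Tnni3 held 2 on the opposite strand. Nppa also held 2 E-boxes and a TATAAA that starts 39 bases before the gene, and Nppb 1 MCAT match and a TATAAA match on the opposite strand. Ankrd2 held a TATAAA that starts 40 bases before the gene, and Tnni1 held no match. The window of Myf6, another soleus gene without overlap, is not shown and held a TATAAA that starts 71 bases before the gene. So few windows, chosen from many genes, do not compare the organs. Such short words are common: of the 11733 promoters found for genes on the array, 16% held GATAA, 10.4% CATTCC, 12.8% CAGCTG and 8.06% TATAAA. The GATAA core was in 12.9% of the 727 promoters of genes called higher in the heart and 14.7% of the 702 of genes called higher in the soleus. For CAGCTG these shares were 12.2% and 15.5%, for TATAAA 6.05% and 10.3%, and for CATTCC 10.5% and 11.8%. The shares are descriptions, and a match is not a site shown to be bound.

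The troponins differed by organ for subunits I and T and little for subunit C. Tnnt2, the cardiac troponin T that ties the complex to tropomyosin, had values of 14.50 to 14.73 in the heart, with a median of 14.65, and 6.30 to 8.58 in the soleus, with a median of 8.05. In 7 of 8 soleus arrays it was above the expression threshold, in contrast to Tnni3, and in the gastrocnemius it averaged 3.87. Its difference was 6.74 (standard error 0.27, adjusted p = 4.30e-11), and soleus exceeded gastrocnemius by 4.00 (adjusted p = 1.22e-09). Tnnt1, the slow skeletal troponin T, was at 2.95 to 4.20 in the heart, with a median of 3.03, and at 14.05 to 14.79 in the soleus, with a median of 14.39. The difference of -11.15 (standard error 0.18, adjusted p = 8.92e-16) was of the size of that in Tnni1. Tnnc1 encodes the calcium-binding subunit C that heart and slow fibres share. It ran from 13.81 to 14.38 in the heart, with a median of 14.19, and from 14.35 to 14.58 in the soleus, with a median of 14.43. Its arrays overlapped, and the difference of -0.29 (standard error 0.07, adjusted p = 0.00441) was too small for a call.

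The fast troponins Tnni2, Tnnt3 and Tnnc2 were low in the heart, with medians of 3.06, 2.50 and 3.00, and present in every soleus array, with medians of 11.97, 12.44 and 13.64. Their differences of -8.48, -9.31 and -9.58 were called (adjusted p of 1.61e-08, 3.95e-09 and 8.84e-09). Soleus arrays spread far more in these genes than in the slow ones, with 8.90 to 13.30 for Tnni2 and 9.79 to 13.34 for Tnnt3.

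In the thick filament the organs divided by myosin heavy chain and myosin-binding protein C, while ventricular and slow light chains were at similar levels. Myh6, the fast cardiac alpha heavy chain of rodent ventricles, had 14.27 to 14.84 in the heart, with a median of 14.58, and 4.23 to 6.48 in the soleus, with a median of 5.32. No array of the soleus reached the threshold, and the difference was 9.19 (standard error 0.29, adjusted p = 3.57e-12). Myh7, the beta or slow heavy chain, is expressed by both. It ran from 11.50 to 11.99 in the heart, with a median of 11.59, and from 14.83 to 15.21 in the soleus, with a median of 15.06. The organs did not overlap, and the difference was -3.38 (standard error 0.09, adjusted p = 2.41e-13). The gastrocnemius had 13.24 on average and so lay between them. A second probeset of Myh7 had means of 8.67 in the heart and 13.7 in the soleus. Its difference was larger, at -5.03 (adjusted p = 2.10e-10 from limma).

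Mybpc3 and Mybpc1 encode the cardiac and slow forms of myosin-binding protein C, which tunes how heads meet actin. Mybpc3 was at 13.21 to 13.54 in the heart, with a median of 13.44, and at 3.92 to 4.89 in the soleus, with a median of 4.27. Mybpc1 was at 2.34 to 2.38 in the heart, with a median of 2.37, and at 13.42 to 14.21 in the soleus, with a median of 13.52. Both forms divided the organs completely, by 9.10 (standard error 0.12, adjusted p = 1.28e-16) and -11.26 (standard error 0.10, adjusted p = 1.01e-18). Mylk3, the cardiac kinase of the regulatory light chain, was higher in the heart by 7.74 (adjusted p = 2.32e-08), with soleus values of 2.71 to 6.79. Myl2 and Myl3, the regulatory and essential light chains of ventricle and slow fibre, differed by 0.18 (standard error 0.10, adjusted p = 0.253) and -0.20 (standard error 0.11, adjusted p = 0.207). Their heart means of 14.73 and 14.21 and soleus means of 14.55 and 14.41 all exceeded the gastrocnemius, at 12.91 and 13.07.

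**Figure D2:**
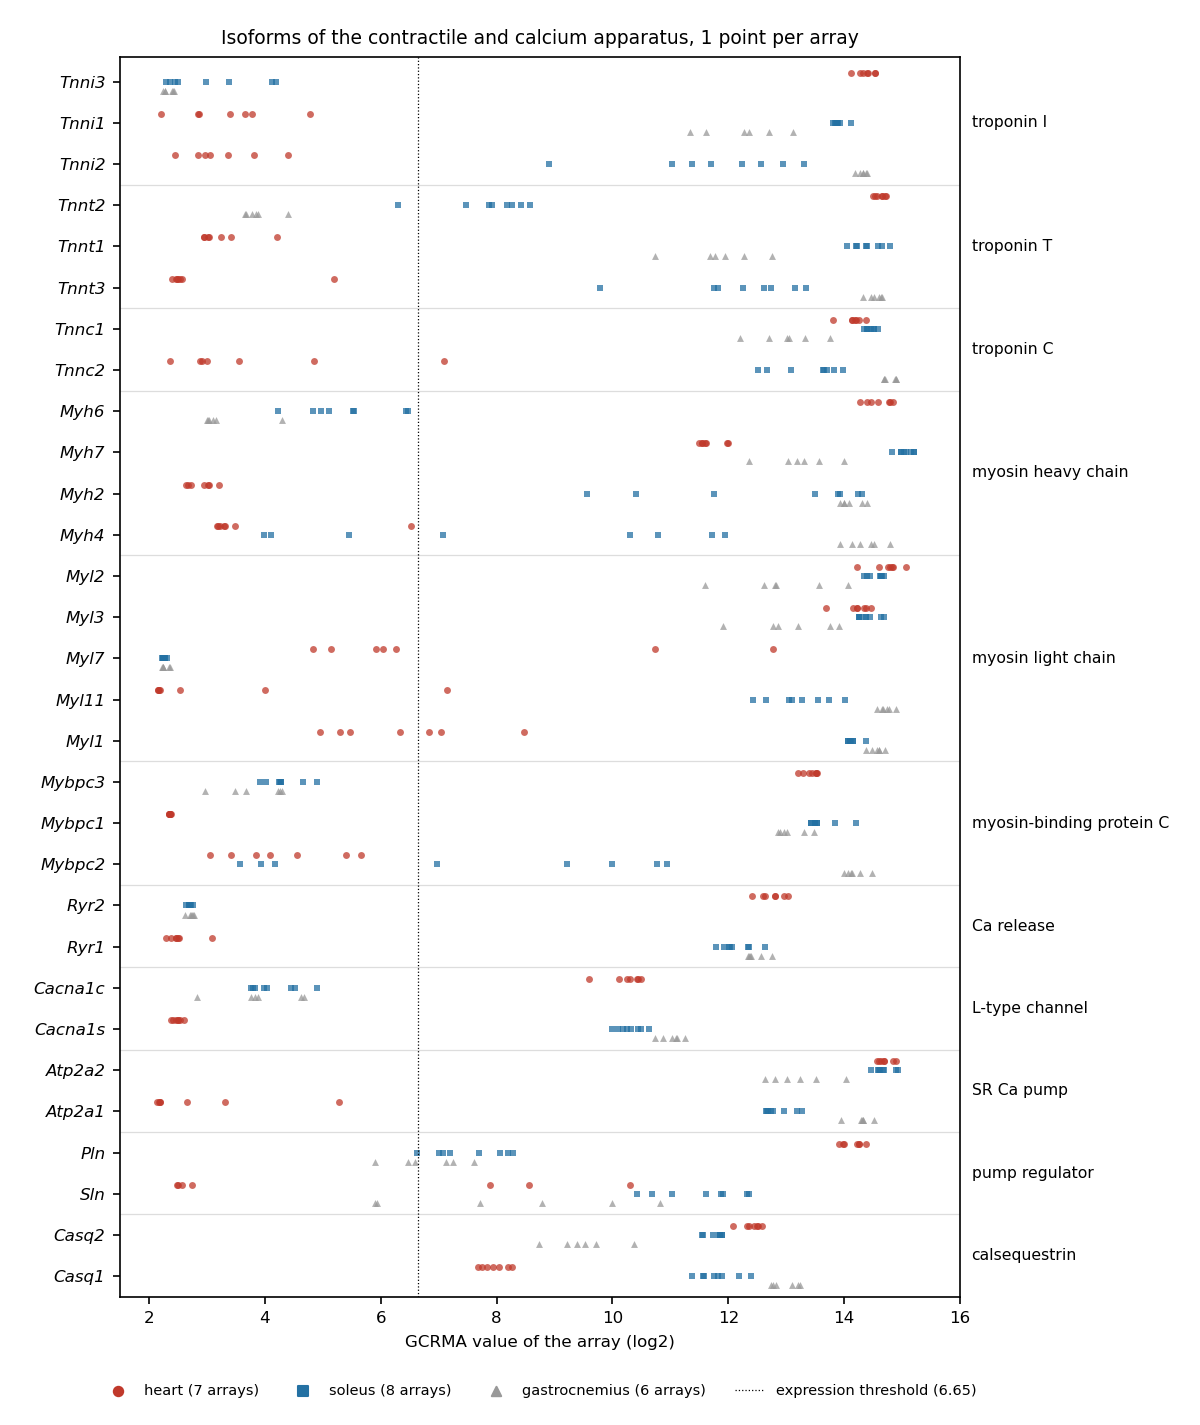
GCRMA value (log2, x axis) of isoforms of the sarcomere and of calcium handling, 1 point per array, for heart (red circles), soleus (blue squares) and gastrocnemius (grey triangles), with the expression threshold as a dotted line. Tnni3, Myh6, Mybpc3 and Ryr2 are high in the heart alone, Tnnc1, Myl2, Myl3 and Atp2a2 are high in heart and soleus, and Myl7, Sln, Myh4 and Mybpc2 are spread widely within an organ.

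Of 40 measured genes whose family has separate heart, slow or fast members, 10 were called higher in the heart (25.0%, against 4.21% of all probesets) and 16 higher in the soleus (40.0%, against 4.03%), with a median difference of -0.49 against 0.0021 over all probesets. Of the 40 genes, 37 were expressed, and of all expressed probesets 24.8% were called in either direction. Shares of each list below are set beside the same 4.21%, 4.03% and 24.8%. Those 3 count every probeset, whereas a list counts 1 probeset per gene, that with the highest mean. The 2 ways of counting are not alike, and the choice of that probeset can raise the share of a list. The 40 genes recur in the lists that follow, which overlap. Of 24 measured genes of the thick filament, 5 were called higher in the heart (Myh6, Myl7, Mybpc3, Myom2 and Mylk3, 20.8%) and 9 higher in the soleus (37.5%), with a median difference of -0.83. Of 44 genes of the thin filament and Z-disc, the plate that anchors actin, 6 were higher in the heart (13.6%) and 28 higher in the soleus (63.6%), with a median of -1.94. Neb, the giant ruler of skeletal thin filaments, had values of 2.83 to 4.47 in the heart, with a median of 2.92, and 12.78 to 13.38 in the soleus, with a median of 13.03. Its difference of -9.83 had a standard error of 0.22 (adjusted p = 6.93e-14). Acta1, the skeletal alpha actin, was well expressed in both, at 11.05 to 13.01 in the heart and 14.98 to 15.17 in the soleus. Its value was 14.98 in 7 of 8 soleus arrays, and the difference was -2.97 (standard error 0.22, adjusted p = 8.87e-08). Whether this repeated value is an upper limit of the measurement, which would make the difference too small, was not tested. Nor was it tested for other genes at such high values, in this and other lists. Actin filaments also carry tropomyosin, which covers the sites for myosin. Tpm1, the alpha form, was higher in the heart by 1.47 (adjusted p = 0.000252), while Tpm2, the beta form, differed by -2.97 on the probeset used and by -9.14 on its other probeset.

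Proteins of the Z-disc that sense strain split by member. Ankrd2, which shuttles between the Z-disc and the nucleus in stretched skeletal muscle, had 2.32 to 2.42 in the heart, with a median of 2.38, and 12.73 to 13.57 in the soleus, with a median of 13.27. It differed by -10.86 (standard error 0.10, adjusted p = 1.11e-18) and was also 2.89 higher in soleus than in gastrocnemius (adjusted p = 1.64e-07). Its cardiac relative Ankrd1 went the other way, at 12.86 to 13.52 in the heart and 7.60 to 8.80 in the soleus, a difference of 5.03 (standard error 0.17, adjusted p = 5.37e-12). Fhl2, a LIM protein bound to titin, was higher in the heart by 3.37 (adjusted p = 1.97e-10), with means of 13.50 in the heart, 10.13 in the soleus and 6.68 in the gastrocnemius. Csrp3, the muscle LIM protein of heart and slow fibres, differed by -0.20 (standard error 0.09, adjusted p = 0.123). Myoz2, the calsarcin of heart and slow fibres, differed by -0.61 without overlap and under the 2-fold threshold, whereas its fast relative Myoz1 differed by -6.64 (adjusted p = 2.43e-10).

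Calcium handling was divided at the release channel and at the voltage sensor and shared at the pump. Ryr2, the cardiac ryanodine receptor through which calcium leaves the sarcoplasmic reticulum, was at 12.41 to 13.03 in the heart, with a median of 12.80, and at 2.64 to 2.76 in the soleus, with a median of 2.70. Ryr1, its skeletal counterpart, was at 2.29 to 3.09 in the heart, with a median of 2.46, and at 11.79 to 12.64 in the soleus, with a median of 12.05. The differences of 10.05 (standard error 0.08, adjusted p = 1.26e-19) and -9.62 (standard error 0.13, adjusted p = 1.82e-16) left each channel near the floor in the other organ. The pore of the L-type calcium channel followed the same split. Cacna1c, the cardiac pore, had 9.59 to 10.49 in the heart and 3.76 to 4.90 in the soleus (difference 6.07, standard error 0.19, adjusted p = 2.09e-12). Cacna1s, the skeletal pore and voltage sensor, had 2.39 to 2.61 in the heart and 9.99 to 10.64 in the soleus (difference -7.82, standard error 0.08, adjusted p = 8.15e-18).

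Partners of these pores moved with them. Cacng1 and Stac3, which belong to the skeletal channel complex, differed by -9.09 and -9.30 (adjusted p of 8.15e-18 and 3.04e-16), and Cacnb2, the beta subunit of the cardiac channel, was higher by 5.49 (adjusted p = 5.42e-13). Slc8a1, the exchanger that removes calcium from heart cells against sodium, was higher in the heart by 5.08 (standard error 0.16, adjusted p = 3.77e-12). Of the calcium/calmodulin kinases, Camk2d was higher in the heart by 1.84 and Camk2b differed by -8.97 (adjusted p of 8.28e-08 and 9.98e-15).

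Atp2a2, the slow and cardiac calcium pump SERCA2, ran from 14.56 to 14.90 in the heart, with a median of 14.68, and from 14.47 to 14.93 in the soleus, with a median of 14.64. The arrays overlapped throughout, and the difference was 0.02 (standard error 0.07, adjusted p = 0.949), with both organs above the gastrocnemius at 13.20. The fast pump Atp2a1 was at 2.15 to 5.27 in the heart and at 12.65 to 13.27 in the soleus, with a difference of -10.02 (standard error 0.40, adjusted p = 4.81e-11). Small proteins in the membrane restrain these pumps. Phospholamban (Pln) was at 13.91 to 14.37 in the heart and at 6.63 to 8.29 in the soleus, a difference of 6.62 (standard error 0.24, adjusted p = 1.22e-11). Sarcolipin (Sln), which in the rodent heart belongs to the atria, was at 2.49 to 10.31 in the heart, with a median of 2.75, and at 10.42 to 12.35 in the soleus, with a median of 11.74. Its difference of -6.23 (standard error 1.20, adjusted p = 0.000962) rested on a heart group that was far from uniform.

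Calsequestrin, which stores calcium in the reticulum, repeated the pattern of a shared slow form and a divided fast form. Casq2 differed by 0.62 without overlap (adjusted p = 2.27e-05), below the 2-fold threshold, and Casq1 by -3.86 (adjusted p = 2.36e-11). Of 38 measured calcium genes, 6 were higher in the heart and 17 higher in the soleus, with a median difference of -0.94. Without heart female 3, heart male 5 and soleus female 4, 7 were higher in the heart and 17 higher in the soleus. In each of the lists described here, leaving out heart female 3, heart male 5 and soleus female 4 together, or heart males 1 and 3 together, changed the count called in a direction by at most 1 gene.

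Genes that join heart cells end to end and conduct between them were called higher in the heart more often than in the soleus. Of 17 measured genes of the intercalated disc, 9 were higher in the heart (52.9%) and 1, Cdh13, higher in the soleus (5.88%), with a median difference of 1.67. Dsp, the desmoplakin that links desmosomes to the cytoskeleton, had values of 12.66 to 13.48 in the heart, with a median of 12.97, and 3.12 to 8.34 in the soleus, with a median of 4.52. Soleus female 4 was the only soleus array above the threshold, and the difference was 8.02 (standard error 0.62, adjusted p = 1.10e-07). Cdh2 (N-cadherin), Dsg2 (desmoglein), Pkp2 (plakophilin) and Myzap, a disc protein of the heart, were higher in the heart by 7.54, 7.34, 5.17 and 8.38, each without overlap (adjusted p between 8.49e-13 and 1.14e-08). Gja1, the connexin of ventricular gap junctions, was at 13.28 to 13.81 in the heart and at 9.12 to 10.20 in the soleus, a difference of 4.03 (standard error 0.15, adjusted p = 2.57e-11). Cdh13, a cadherin without a membrane-spanning part, was called at -1.0 with overlapping arrays (adjusted p = 0.0128), and that call was lost in 8 of the 15 fits that left out a single array.

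Ion channels showed 9 of 31 measured genes higher in the heart (29.0%) and 2 higher in the soleus (6.45%), with a median of 0.93. Kcnip2 and Kcnd2 form the transient outward potassium current of early repolarisation. Kcnip2 was at 11.63 to 12.33 in the heart and at 3.14 to 4.49 in the soleus, and Kcnd2 at 6.91 to 8.11 in the heart and at 2.82 to 3.23 in the soleus. Both were separated in all arrays, by 8.28 and 4.62 (adjusted p of 1.57e-13 and 6.37e-12). Fgf12, which binds sodium channels, Kcnk3, a background potassium channel, and Kcnq1, the slow repolarising channel, were higher in the heart by 6.35, 5.13 and 3.70 (adjusted p of 5.46e-13, 1.58e-11 and 1.30e-05). The sodium channel subunit Scn4b and the membrane protein Popdc3 differed by -1.66 and -4.37 (adjusted p of 1.40e-07 and 3.02e-06). Scn4a, the pore of the skeletal muscle sodium channel, was below the expression threshold in both organs on this array. It was at 2.20 to 2.24 in the heart and 2.22 to 4.47 in the soleus, where female 2 had the highest value. In the gastrocnemius it averaged 3.45, also below the threshold, as did its mean in every other organ. The probeset thus does not show whether the soleus lacks this gene.

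At the neuromuscular junction the organs differed in the receptor for acetylcholine. Its delta subunit Chrnd had 2.27 to 2.66 in the heart, with a median of 2.30, and 9.25 to 9.99 in the soleus, with a median of 9.58, and the difference was -7.27 (standard error 0.10, adjusted p = 2.13e-16). Chrna1 and Chrnb1 followed at -5.97 and -5.50 (adjusted p of 1.14e-14 and 1.16e-09). Soleus also exceeded gastrocnemius in Chrnd, by 3.27 (adjusted p = 1.16e-06), and in Chrna1, by 2.25 (adjusted p = 1.34e-06). Agrn, which gathers receptors at the synapse and is made by many tissues, was higher in the heart by 1.97 (adjusted p = 2.66e-10). In all, 3 of 18 genes of this list were higher in the heart (16.7%) and 5 higher in the soleus (27.8%), with a median of -0.42.

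Of 24 secreted factors measured, 4 were higher in the heart (Nppa, Nppb, Vegfb and Fgf1; 16.7%, against 4.21% of all probesets) and 2 higher in the soleus (Ccn2 and Igf2; 8.33%, against 4.03%), with a median of -0.10. Among receptors and signalling proteins of the autonomic nerves, 4 of 30 genes were higher in the heart (13.3%) and 1 higher in the soleus (3.33%, below the 4.03% of all probesets), with a median difference of 0.14. Adra1b, an adrenergic receptor for noradrenaline, was at 9.5 to 10.14 in the heart and at 2.24 to 2.46 in the soleus, a difference of 7.46 (standard error 0.09, adjusted p = 5.02e-17). The adenylyl cyclases of heart muscle, Adcy5 and Adcy6, which make cyclic AMP, were higher in the heart by 5.08 and 3.74 (adjusted p of 4.30e-10 and 9.35e-11). Adrb1, the main cardiac beta receptor, was not measurably expressed on this array in either organ, with means of 3.80 in the heart and 3.18 in the soleus.

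Transcription factors known from the development of the heart and of the limb muscles differed between the organs in part of their members. Gata4 was at 8.67 to 9.76 in the heart, with a median of 9.54, and at 2.05 to 2.08 in the soleus, with a median of 2.06, with a difference of 7.36 (standard error 0.13, adjusted p = 2.25e-15). Gata5, Gata6, Nkx2-5 and Tbx5, which act in early heart development, were higher in the heart by 5.11, 5.65, 5.09 and 4.66 (adjusted p between 7.97e-15 and 1.03e-07). Irx4 and Hey2, which in the mouse mark ventricular muscle, were higher in the heart by 6.01 and 1.60 (adjusted p of 9.34e-14 and 0.000293). Of 27 cardiac factors measured, 12 were higher in the heart (44.4%) and 2 higher in the soleus (7.41%), with a median difference of 0.64. Those 2 were Mef2c, a partner of myogenic factors in all striated muscle, at -2.13, and Esrrg, a nuclear receptor of oxidative metabolism, at -1.24 (adjusted p of 1.24e-06 and 7.78e-05).

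Myf6, the myogenic factor that persists in adult fibres, was at 2.34 to 2.44 in the heart, with a median of 2.37, and at 11.52 to 12.44 in the soleus, with a median of 11.95. Its difference was -9.56 (standard error 0.13, adjusted p = 1.26e-16), and the gastrocnemius mean of 11.70 was near that of the soleus. Vgll2, a cofactor of TEAD proteins in skeletal muscle, and Myog, the differentiation factor myogenin, differed by -8.51 and -4.39 (adjusted p of 1.05e-15 and 1.24e-07). The Hox genes Hoxa10 and Hoxd8, which hold the position of a tissue along the body, differed by -5.44 and -5.03 (adjusted p of 7.01e-13 and 2.72e-11). They were not particular to limb muscle, with means above the threshold in 6 and 15 of the 28 organs other than these muscles. Of 29 measured factors of skeletal muscle and limb, 9 were higher in the soleus and 1 (Id2, an inhibitor of myogenic factors) higher in the heart, with a median of -1.85. Id2 was called at 1.37 with overlapping arrays (adjusted p = 0.0222), and was not called without heart female 3, heart male 5 and soleus female 4 (1.10, adjusted p = 0.0851).

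**Figure D3:**
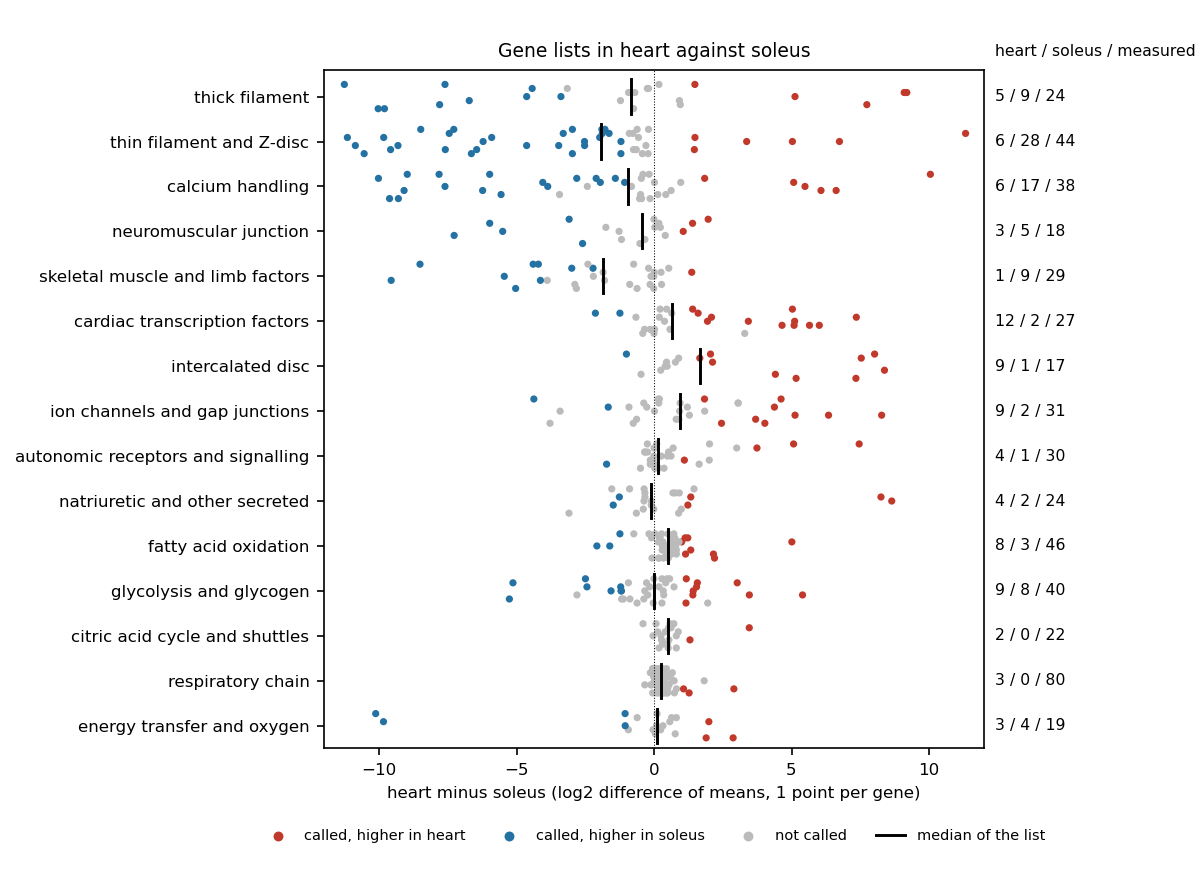
Difference of organ means, heart minus soleus (log2, x axis), for each measured gene of 15 lists, 1 point per gene, with genes called higher in the heart in red, higher in the soleus in blue and not called in grey, and the list median as a bar. Counts at the right give genes higher in the heart, higher in the soleus and measured. Thin filament genes lie mostly at the left, intercalated disc genes at the right, and the 80 genes of the respiratory chain crowd around 0.

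Few genes of the machinery of oxidation were called. Of 80 genes of the respiratory chain, 3 were called by limma, all higher in the heart (3.75%, against 4.21% of all probesets). Expressed members numbered 76, and of all expressed probesets 24.8% were called in either direction. Over the 80 genes, differences ranged from -0.34 to 2.91, with a median of 0.27. The 3 were Cox7a1, the muscle form of a cytochrome oxidase subunit, at 2.91, Cox6a1, the form of another subunit made outside muscle, at 1.28, and Ndufv3, a subunit of complex I, at 1.08 (adjusted p of 6.08e-05, 0.000708 and 0.000257). The second probeset of Ndufv3 gave -1.35 (adjusted p = 5.48e-06), so that the direction of this gene is not settled. In the limma fit paired by animal Cox6a1 (1.17, adjusted p = 0.0631) and Ndufv3 (0.96, adjusted p = 0.0621) were not called, and Ndufv3 was not called without soleus female 4 (0.99). Cox6a2 and Cox8b, the muscle forms of cytochrome oxidase subunits, differed by -0.05 and 0.17 (adjusted p of 0.586 and 0.314).

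Of 22 genes of the citric acid cycle and its shuttles, 2 were called by limma, both higher in the heart (9.09%), with a median of 0.50. The larger was Slc25a13, a carrier of aspartate and glutamate, at 10.58 to 11.36 in the heart and 7.15 to 8.42 in the soleus, a difference of 3.46 (standard error 0.17, adjusted p = 6.22e-10). In the gastrocnemius it averaged 5.75. Cs, the citrate synthase often used to gauge mitochondria, differed by 0.59 (standard error 0.13, adjusted p = 0.00271), below the 2-fold threshold. Myoglobin (Mb) ran from 14.51 to 14.71 in the heart and from 14.36 to 14.66 in the soleus. Its difference was 0.09 (standard error 0.04, adjusted p = 0.170), and that of Ckmt2, the mitochondrial creatine kinase, was 0.05 (standard error 0.07, adjusted p = 0.712).

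Fatty acid genes gave 8 of 46 higher in the heart (17.4%) and 3 higher in the soleus (6.52%), with a median of 0.51. Ucp2, an inner membrane carrier, was at 9.57 to 11.11 in the heart and at 4.70 to 5.91 in the soleus, a difference of 5.01 (standard error 0.23, adjusted p = 2.63e-10). Its relative Ucp3 differed by -1.61 (adjusted p = 0.00423), with arrays that overlapped. Carnitine palmitoyltransferase, which admits long fatty acids to mitochondria, has a liver form, Cpt1a, that was higher in the heart by 2.20 (adjusted p = 5.78e-07). Its muscle form Cpt1b differed by -0.18 (adjusted p = 0.526). Fabp3 and Cd36, which carry fatty acids within the cell and across its membrane, differed by 0.30 and 0.51 (adjusted p of 0.0200 and 0.0933), and neither was called.

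Glycolysis and glycogen were divided by isoform, with 9 of 40 genes higher in the heart, 8 higher in the soleus and a median of -0.02. Pygb, the glycogen phosphorylase named for brain, was at 11.27 to 11.86 in the heart and at 5.85 to 6.67 in the soleus, a difference of 5.40 (standard error 0.13, adjusted p = 8.30e-14). Hk1, the hexokinase of heart and brain, was higher by 3.47 (adjusted p = 4.63e-08). Pfkfb1, a form of the kinase that sets fructose bisphosphate levels, and Slc16a3, the transporter through which fast fibres export lactate, differed by -5.26 and -5.13 (adjusted p of 2.99e-12 and 1.35e-12). In the soleus they averaged 8.14 and 7.82, and in the gastrocnemius 10.49 and 10.61. Ldha, the muscle lactate dehydrogenase, was higher in the heart by 1.16 (adjusted p = 1.62e-07) and highest in the gastrocnemius. Ldhb, the heart form, differed by 0.47 (adjusted p = 0.000100), and both organs exceeded the gastrocnemius, by 2.06 and 1.58 (adjusted p of 3.92e-09 and 6.87e-07).

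Of genes for energy transfer and oxygen, 3 of 19 were higher in the heart and 4 higher in the soleus. Car3, the carbonic anhydrase of slow fibres and fat, was at 3.27 to 9.44 in the heart, with a median of 3.76, and at 15.10 to 15.49 in the soleus, with a median of 15.24. Ampd1, the AMP deaminase of skeletal muscle, was at 2.38 to 2.58 in the heart and at 11.93 to 12.58 in the soleus. Their differences were -10.12 (standard error 0.81, adjusted p = 1.70e-07) and -9.84 (standard error 0.10, adjusted p = 2.02e-18). Ckm, the muscle creatine kinase, differed by -1.05 (adjusted p = 4.81e-05), near the threshold, and was not called without heart female 3 (-0.91).

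Among the largest differences were also genes outside these lists. Lrrc10, a leucine-rich repeat protein of heart muscle, was at 11.76 to 12.44 in the heart and at 2.49 to 2.68 in the soleus. Tnni3k, a kinase that binds cardiac troponin I, was at 10.94 to 11.41 in the heart and at 2.30 to 2.44 in the soleus. Their differences of 9.63 and 8.88 (adjusted p of 2.47e-18 and 5.21e-20) were joined by Spink8 at 9.01 and Frmd5 at 8.58 (adjusted p of 4.49e-17 and 1.68e-16). On the other side, Smtnl1, a smoothelin-like protein, was at 2.50 to 2.69 in the heart and at 12.75 to 13.29 in the soleus, a difference of -10.40 (standard error 0.07, adjusted p = 5.21e-20).

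The remaining 28 organs show how narrow these genes were. Lrrc10, Tnni3k, Nppa, Nppb, Nkx2-5 and Ankrd2 were above the threshold on average in none of them, and the highest of these means was 4.50, for Nppa in the lung. Myh6 and Myl7 reached 9.82 and 9.86 in the lung. Tnnt2 was also high in the bladder (13.65), Kcnip2 in the brain (9.0), Spink8 in the epididymis (12.51), Gata4 in the duodenum (9.87) and Adra1b in the liver (9.94). Skin had the highest mean of the 28 for several skeletal genes, such as Myl11 (14.38), Tnnt3 (13.78) and Myf6 (9.37). Car3 was at 15.17 in adipose, above the threshold in 22 of the 28 organs, and Dsp above it in 21. The probeset used for Myh1, a fast heavy chain, was above it in all 28, with a median of 11.24, and says nothing here on skeletal muscle fibres.

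Against the gastrocnemius, the heart had 1578 probesets higher and 1315 lower (together 2893, 9.32%), and the soleus 466 higher and 387 lower (together 853, 2.75%). These comparisons share arrays with that of heart and soleus, so their values are set side by side only. Of the 31042 probesets tested, 155 were called higher in both heart and soleus than in gastrocnemius. Among them Casq2 exceeded the gastrocnemius by 2.91 in the heart and by 2.28 in the soleus, and Atp2a2 by 1.5 and 1.48. Myl2 did so by 1.82 and 1.64, and Tnnc1 by 1.15 and 1.44. Fast genes ran the other way: Mybpc2, the fast myosin-binding protein C, averaged 4.29 in the heart, 7.45 in the soleus and 14.18 in the gastrocnemius. Actn3, the alpha-actinin of fast fibres, averaged 2.55, 8.45 and 14.34, and Pvalb, the calcium buffer parvalbumin, 2.38, 7.94 and 13.91 in the same order.

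Within the heart, a group of atrial genes varied from array to array. Myl7, the atrial regulatory light chain, was at 10.73 in heart male 1 and 12.78 in heart male 3, and at 4.82 to 6.27 in the other 5 arrays. Sln was at 7.88 and 10.31 in those arrays, at 8.56 in heart female 3 and at 2.49 to 2.75 in the other 4. Myl4, the atrial essential light chain, was at 8.54 and 11.50 in heart males 1 and 3 and at 3.40 to 6.06 in the others, and Nppa had its highest values in the same pair (11.49 and 13.31). In the same arrays Car3 was at 7.03 and 9.44, against 5.91 in heart female 3 and 3.27 to 3.76 in the rest. Tnni3 was at 14.42 and 14.11 in heart males 1 and 3, close to the heart median. Of 11 measured atrial markers, 4 were called higher in the heart (36.4%) and 1 higher in the soleus (9.09%). Their summed level (log2 of the sum) ran from 10.52 to 14.46 across heart arrays and from 11.07 to 12.55 across soleus arrays. Without heart males 1 and 3 these counts were 3 and 2. Myl7, called at 5.13 (adjusted p = 0.00148), then missed the expression threshold (difference 3.38), and also did without heart male 3 alone (4.23). Myl4, not called over all arrays (-0.93, adjusted p = 0.556), was then called at -2.26 (adjusted p = 0.000777). Myl4 was also called without heart male 3 alone (-1.73, adjusted p = 0.0358). The part of atrial tissue in these values was not tested.

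Heart female 3 stood above the other heart arrays in several fast fibre genes. Its value was 7.15 for Myl11, the fast regulatory light chain, 7.09 for Tnnc2, 6.52 for Myh4, 5.19 for Tnnt3 and 4.69 for Actn3, where the other 6 heart arrays reached at most 4.01, 4.85, 3.49, 2.57 and 2.21. It was also the lowest heart array for Pgam2, Cpt1b, Fabp3 and Cs. Without it the differences in Myh4, Tnnt3 and Actn3 were -4.89, -9.70 and -6.26, against -4.43, -9.31 and -5.90 with it.

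Within the soleus, several fast fibre genes varied widely and others little. Myh2, the heavy chain of fast oxidative fibres, ran from 9.56 in female 3 to 14.31 in female 1. Myh4, that of the fastest fibres, ran from 3.98 in female 5 to 11.95 in female 3, and Actn3 from 5.33 in female 1 to 12.39 in female 4. Over the same arrays the fast fibre genes Atp2a1 and Myl1 kept within 12.65 to 13.27 and 14.06 to 14.37. The slow genes Tnni1, Myh7 and Tnnt1 kept within 13.80 to 14.12, 14.83 to 15.21 and 14.05 to 14.79. The difference in Myh4 was called at -4.43 (adjusted p = 0.0193) but not without heart males 1 and 3 (-4.27, adjusted p = 0.0658). That in Mybpc2 was not called over all arrays (-3.15, adjusted p = 0.0695). It was called when soleus male 2, female 1 or female 5 was left out (-3.62, -3.66 and -3.71). Of 16 measured fast fibre markers, 13 were called, all higher in the soleus (81.25%). Their summed level was 13.17 to 13.66 in the heart, Myh1 included, and 15.77 to 16.80 in the soleus.

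**Figure D4:**
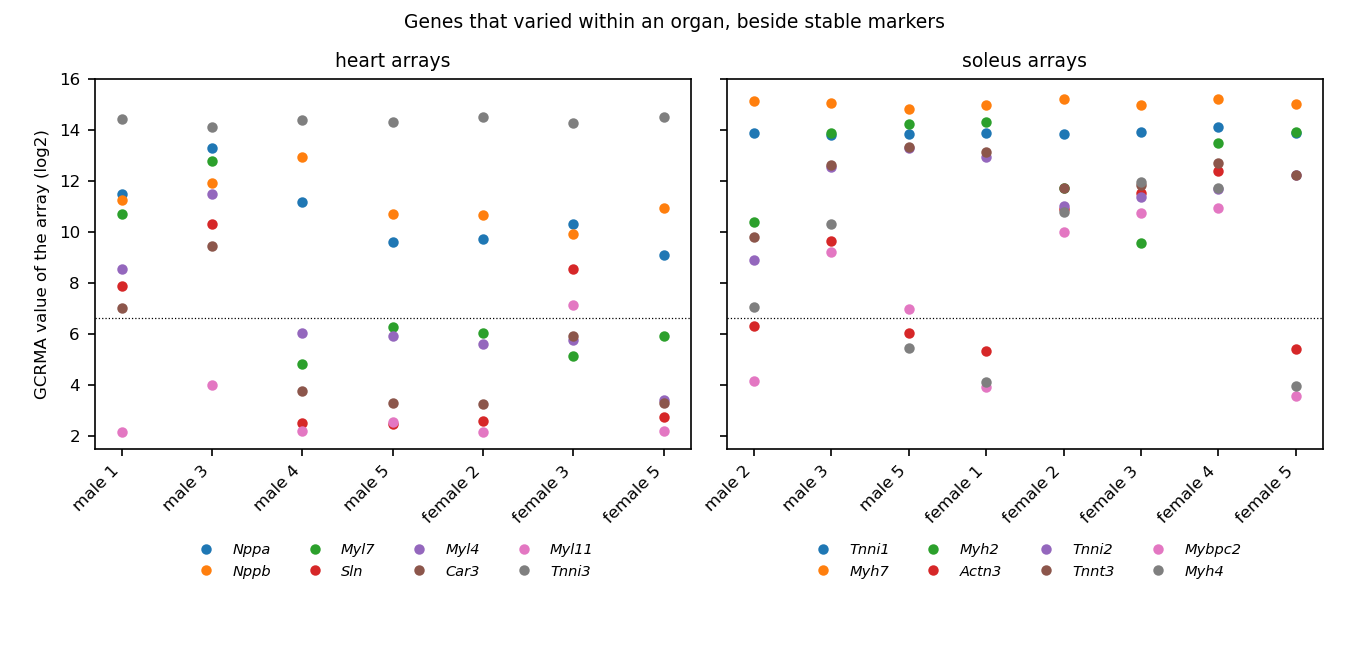
GCRMA value (log2, y axis) of genes that varied within an organ, for each of 7 heart arrays (left) and 8 soleus arrays (right), with the expression threshold as a dotted line. In the heart panel Myl7, Myl4 and Car3 are highest in male 1 and male 3, and Sln is high in these and in female 3, while Tnni3 stays near its heart median of 14.39. In the soleus panel Actn3, Myh4 and Mybpc2 spread over several log2 units while Myh7 and Tnni1 do not.

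Markers of other cell types also differed between the organs. Of 11 endothelial genes, 5 were called, all higher in the heart (45.45%). Kdr and Flt1, receptors for vascular growth factor, were higher in the heart by 1.46 and 1.57 (adjusted p of 3.13e-05 and 8.82e-05). The summed endothelial level was 12.60 to 12.89 in the heart and 11.38 to 11.81 in the soleus. Of 7 blood markers, 3 were called, all higher in the heart (42.9%): Hbb, a globin chain, by 2.26, Alas2, which starts haem synthesis in red cells, by 3.82, and Slc4a1, the red cell anion exchanger, by 5.39 (adjusted p of 0.000137, 1.67e-07 and 7.86e-14). Their summed level was 13.46 to 14.45 in the heart and 10.71 to 12.67 in the soleus. A single mesothelial marker of 7 (14.3%), Wt1, was higher in the heart, by 4.41 (adjusted p = 6.80e-12), and so was Tcf21, a fibroblast factor of the epicardium, by 4.46 (adjusted p = 6.77e-11).

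More tendon and nerve markers were called higher in the soleus than in the heart. Of 16 fibroblast and tendon genes, 3 were higher in the heart and 8 higher in the soleus. Tnmd, the tendon protein tenomodulin, was at 2.43 to 3.28 in the heart and at 7.39 to 8.95 in the soleus, and Thbs4, a thrombospondin of tendon, at 2.30 to 4.47 in the heart and at 10.18 to 11.32 in the soleus. Their differences were -5.51 and -7.70 (adjusted p of 9.12e-11 and 1.06e-10). Of 9 markers of nerve and Schwann cells, 4 were called, all higher in the soleus (44.4%), among them the myelin gene Mbp at -5.09 (adjusted p = 1.57e-07). Soleus female 4 had the highest values of Mbp (9.98) and of the fat genes Adipoq (8.71) and Plin1 (8.16). Of 7 adipocyte genes 1 (Fabp4, which the heart endothelium also makes) was higher in the heart (14.3%) and 3 higher in the soleus (42.9%). The summed level of the fat list overlapped, at 11.17 to 12.95 in the heart (median 12.68) and 11.64 to 12.30 in the soleus (median 12.02). The difference in Fabp4 was just above the 2-fold limit, and its call was lost in 7 of the 15 fits without 1 array (0.94 to 0.99), those without heart male 3, heart male 5, heart female 2, heart female 5, soleus male 3, soleus female 1 or soleus female 5. It was also lost with sex as a covariate (0.97), in the limma fit over all organs (adjusted p = 0.172) and in the paired limma fit (adjusted p = 0.0925). Adipoq, a hormone of fat cells, differed by -5.37 (adjusted p = 1.32e-12).

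Of 10 smooth muscle genes 3 were called, all higher in the soleus (30.0%), and of immune genes 1 of 14 was higher in the heart (7.14%) and 3 higher in the soleus (21.4%). The summed level of the immune list was 12.50 to 12.89 in the heart (median 12.84) and 11.52 to 12.59 in the soleus (median 12.31). The 3 measured satellite cell markers, Cdh15, Calcr and Chrdl2, had means below the expression threshold in both organs. These were 2.52, 2.29 and 3.79 in the heart and 4.65, 2.32 and 6.59 in the soleus, where Chrdl2 was close to the threshold. Their summed level was 4.48 to 4.70 in the heart and 6.51 to 7.76 in the soleus. Summed levels of the fibroblast and tendon list were 14.36 to 14.88 in the heart and 15.11 to 15.62 in the soleus, and those of the nerve list had medians of 10.26 in the heart and 11.69 in the soleus. How far these other tissues contribute to differences in other genes was not tested.

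**Figure D5:**
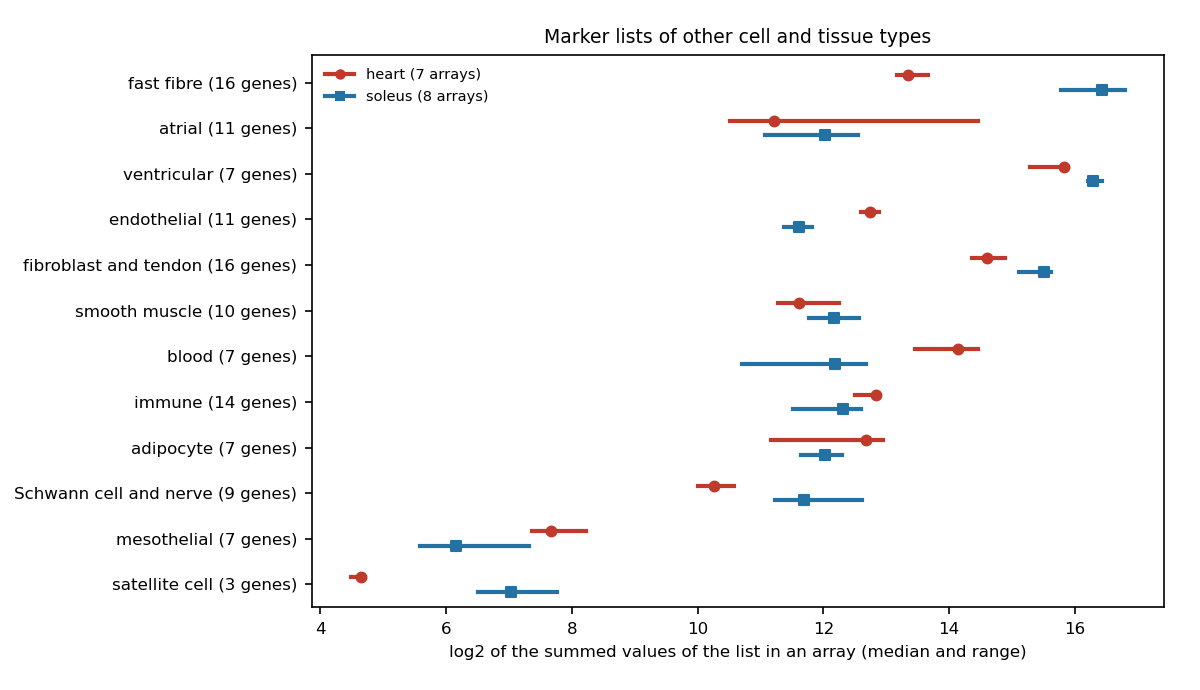
Summed level of marker lists (log2 of the sum over the list, x axis), with the median and range over 7 heart arrays (red circles) and 8 soleus arrays (blue squares). Endothelial and blood lists are higher in the heart without overlap, fast fibre, fibroblast and tendon, and nerve lists are higher in the soleus without overlap, and the atrial list spans 10.52 to 14.46 in the heart.

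The difference between the organs was also compared between the sexes. No probeset had an interaction with an adjusted p under 0.05 in limma (0.0% of 31042), with the array labelled heart male 5 in the fit or out of it, and none did with a trended and robust spread or with the animal as a block. An unadjusted p under 0.05 was reached by 1215 probesets (3.914%). A single probeset was called when heart male 3, heart female 5, soleus male 2 or soleus female 3 was left out, and 2 when heart female 2 or heart female 3 was. With 3 to 5 arrays per organ and sex these counts do not show that the sexes are alike.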

How the data were processed

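RNA from each organ was labelled with the Affymetrix IVT kit and hybridised to RAE230_2 genechips. The deposited values are log2 expression values that the authors made from the scans with GCRMA in Bioconductor (version not given in the sources used here), after arrays that failed quality control had been removed. GCRMA subtracts background and equalises array distributions, so changes in total RNA per cell are not measured. All 31042 probesets were tested, and no control probesets were among them. The deposited platform annotation gave 1 gene symbol for 20826 probesets, several for 436 and none for 9780, and 20758 of the first matched the current RefSeq gene table. A gene of a list is represented by its probeset with the highest mean over the 15 arrays.

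Heart and soleus were compared with limma 3.58.1 in R 4.3.3 (lmFit and eBayes, no covariates), with Benjamini-Hochberg adjustment over all probesets. The thresholds were a mean above 100.4 on the linear scale in at least 1 organ, a 2-fold difference and an adjusted p under 0.05. Heart, soleus and gastrocnemius were fitted together for comparisons with the gastrocnemius, and organ, sex and their interaction for the sexes. The titles number the arrays of each sex as the 5 rats of that sex would be, so arrays with the same number and sex were taken to come from the same animal, and 5 such animals gave both organs. The 2 arrays numbered male 5 have opposite patterns of the sex-linked genes, which goes against this for that pair. Deviations of their arrays from the organ means correlated at -0.27 to 0.09 (consensus correlation -0.27), and the unpaired fit was kept. Within an organ each array is a separate animal, and the number of arrays limits the precision. Scripts were tested on simulated data. The alternatives were other fits, normalizations, thresholds and adjustments, each sex alone, the animal as a block and each array left out. Those that left out heart female 3, heart male 5 and soleus female 4 together, or heart males 1 and 3 together, and the blocks in which the male 5 arrays were not paired, were chosen after seeing the data. Figures were drawn with matplotlib 3.10.9.

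The genes named were the markers, all measured genes of the isoform list, the 10 genes with the largest difference in each direction among called probesets without overlap, and up to 4 called genes of each other list, which gave 122 genes. A further 40 were chosen after their values were seen: Dsg2, Pkp2, Gja1, Nkx2-5, Gata6, Gata5, Myog, Hoxd8, Ankrd1, Fhl2, Stac3, Cacng1, Cacnb2, Camk2b, Camk2d, Myl1, Myh4, Actn3, Pvalb, Kcnk3, Kcnd2, Kcnq1, Mb, Ckmt2, Ckm, Fmod, Mylk3, Chrnb1, Cpt1b, Pdk4, Fabp3, Cd36, Postn, Tpm1, Tpm2, Cox6a2, Cox8b, Cs, Myh1 and Pgam2. The satellite cell markers and other list members given only by name or mean were also named after their values were seen. The members and all lists were chosen with earlier results of these data known.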

Additional observations from a re-analysis of the deposited data

Results flagged for a closer look

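In 162 named genes, the arrays of each organ were searched for a highest or lowest array that stood apart from the rest by more than Dixon's critical value. Of 324 groups, 53 were marked. Chance marks about 1 in 20 of groups looked at blind, a share that does not apply here, since the genes were chosen with values known. Of the 53, 20 are in the 40 genes chosen after their values were seen. Heart female 3 accounted for 22, of which 10 are in those 40 genes. It was the lowest heart array, by its log2 value, for Myl3 (13.69), Jph2 (10.11), Ldha (12.95), Acsl6 (3.56), Hk1 (8.09), Cd74 (11.71), Fabp4 (11.15), Cox6a1 (10.63), Ndufv3 (10.97), Ckm (12.14), Cpt1b (11.60), Fabp3 (13.76), Cd36 (11.90), Cs (13.06) and Pgam2 (10.26). It was the highest for Tnnt3 (5.19), Atp2a1 (5.27), Myl11 (7.15), Hoxd8 (3.55), Myh4 (6.52), Actn3 (4.69) and Pvalb (2.90). Genes of fatty acid use, of the citric acid cycle and of sugar use are among the low values, and genes of fast skeletal fibres among the high ones. Heart male 1 was the lowest for Cacna1c (9.59), Csrp3 (12.45), Scn4b (9.65) and Slc25a13 (10.58), and the highest for Tagln (9.67), an actin-binding protein of smooth muscle. Heart male 3 was the highest for Tnnt1 (4.20), Ryr1 (3.09), Slc16a3 (3.29), Tnmd (3.28) and Adipoq (2.80), all values below the expression threshold. Heart male 4 was the lowest for Popdc3 (3.04) and Postn (4.44), heart female 5 the highest for Chrnd (2.66), Myog (4.50) and Kcnk3 (8.96), and heart female 2 the highest for Stac3 (3.32).

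In the soleus, female 4 accounted for 8, as the highest array for Tnni1 (14.12), Acta1 (15.17), Tnni3k (2.44), Irx4 (2.31), Tbx5 (2.57), Dsg2 (4.56), Myl1 (14.37) and Tpm2 (11.80). Soleus male 2 was the lowest for Tnnt3 (9.79) and Tpm1 (11.68). Soleus female 2 was the highest for Scn4a (4.47) and Camk2b (11.57), and soleus female 5 the highest for Nkx2-5 (3.40). Soleus male 3 was the highest for Frmd5 (2.86) and the lowest for Tcf21 (2.28). No explanation of these values was tested.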

How the results depend on the processing

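Under the settings tried, the 2557 called probesets, 1307 of them higher in the heart, stayed within 1.5 times in number except where a threshold changed. Without the expression threshold 3941 were called (2051 higher in the heart and 1890 higher in the soleus), and above 1.5-fold 4251 (2134 higher in the heart and 2117 higher in the soleus). Leaving out each array in turn gave 2528 to 2613 calls, with 1282 to 1350 higher in the heart and 1211 to 1291 higher in the soleus. The probesets with an interaction with sex were 0 in the full fit, 1 without heart male 3, heart female 5, soleus male 2 or soleus female 3, 2 without heart female 2 or heart female 3, and 0 without any other single array. With the animal as a random block 2529 were called (1288 higher in the heart and 1241 higher in the soleus), and in the fit paired over the 5 animals with both organs 2625 (1362 higher in the heart and 1263 higher in the soleus). With the male 5 arrays not paired, the random block called 2541, and the paired fit over the other 4 animals 2247 (1115 higher in the heart and 1132 higher in the soleus). The paired fit over 5 animals ended the calls of 7 named genes and that over 4 animals those of 22, among them Myl7 (5.23, adjusted p = 0.121) and Sln (-5.43, adjusted p = 0.135). The block gave 2889 calls for heart against gastrocnemius and 847 for soleus against gastrocnemius, and 0 interactions with sex, and it ended the call of Id2 (1.25, adjusted p = 0.0556). The methods' t-test called 2542 after Benjamini-Hochberg adjustment. Of 137 named genes called, 28 lost the call under at least 1 setting, and 12 of these under settings other than the use of 1 sex or of the paired animals. Ndufv3 turned to -0.14 when its probesets were averaged, since they differ in direction. Counted over probesets in place of genes, the share higher in the soleus was 14.7% for the neuromuscular junction, 2.22% for autonomic receptors, 5.88% for atrial markers and 1.12% for the respiratory chain, and the share of cardiac factors higher in the heart was 26.4%.

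The number of arrays limits the precision, and differences against values near the floor of the scale depend on that floor. Heart chambers, fibre types and attached tissues cannot be told apart in whole-organ RNA. Sex was taken from the labels, and sex-linked genes went against it for 1 array.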
